A study of Homo sapiens with 4 samples.

Results

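The genes of the kinetochore, the centromere and the spindle checkpoint were examined in NUDUL1 cells with and without GNA13. NUDUL1 is a line of human diffuse large B cell lymphoma of the germinal center type, and GNA13 encodes the G protein subunit Gα13. A gene was a member if its symbol was CENP followed by letters only, or if it was among 24 named genes. The CENP symbol found 16 genes and the names found 21, which gave 37 members out of 25066 genes. All 37 were above 0 in at least 2 of the 4 libraries, as were 16945 genes in all.

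The comparison was between 2 libraries from cells with a control sgRNA and 2 libraries from GNA13-deficient cells. Cells of both genotypes carried a doxycycline-inducible Cas9 and the transduced thromboxane receptor Tbxa2r, and all were given the thromboxane A2 analog U46619, a ligand of that receptor, at 10 nM for 24 h. No untreated library was part of the comparison, so it asked how the genotypes differed while the receptor was stimulated. The Cas9 cells were a selected clone and each genotype rested on 1 sgRNA. The labels describe duplicate treatments without naming separate cultures, so the p values measure the spread between these libraries.

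Kinetochores are protein assemblies built on centromeric chromatin that hold chromosomes to spindle microtubules during mitosis. Kinetochores without proper attachment generate the spindle checkpoint signal, which keeps the anaphase-promoting complex inactive until all chromosomes are attached. Many of these genes are transcribed periodically, with mRNA that peaks in G2 and mitosis, so their level in a bulk library can follow the share of cycling cells. A larger share of cells in a given phase and more RNA per cell cannot be told apart in such libraries.

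The libraries held 29209544 to 31537955 mapped reads, and a member was covered by 212 to 9794 reads per library. The 6 B cell markers were all expressed (log2 10.21 to 14.33), with 53850 to 60050 summed reads in the control libraries and 51598 to 53245 in the GNA13-deficient libraries. By the limma calls used below, 1 of these 6 was higher and 1 lower in the GNA13-deficient libraries. The same calls gave 13.1% and 16.6% of all genes tested. Of the T cell and the myeloid markers described next, 1 each was called lower. The 3 erythroid markers were at 0 and the 4 T cell markers never passed 5 reads in a library, with CD3D and CD3E at 0 throughout. The 5 myeloid markers summed to 99 to 101 reads in the control libraries and 21 to 24 in the GNA13-deficient libraries, mostly from LYZ, with S100A8 and FCGR3A at 0, and their part in the results was not tested. GNA13 mRNA itself was at log2 12.46 and 12.45 in the control libraries against 13.10 and 13.11 in the GNA13-deficient ones, a difference of 0.65 (SE 0.05, limma adjusted p = 0.00214). A Cas9 cut can disrupt a protein without lowering its mRNA, so this level does not check the labels, from which the directions given here are taken.

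Most members had more mRNA in the GNA13-deficient cells. By limma with Benjamini-Hochberg adjustment over the 16945 genes, 30 of the 37 members rose, where 13.1% of all genes tested were called higher. A single member, the checkpoint gene MAD1L1, fell, where 16.6% of all genes were called lower. The 6 members that passed in neither direction were CENPA, CENPB, CENPE, CENPP, NSL1 and ZW10. The median log2 difference over the members was 0.59, with quartiles of 0.45 and 0.77 and a range from -1.07 to 1.19, beside a median of -0.02 over all genes tested. Among the 7754 genes tested whose mean level lay in the members' range, log2 8.24 to 13.15, 20.3% were called higher, 18.5% were called lower and the median was 0.02.

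Both GNA13-deficient libraries lay above both control libraries in 33 members, against 31.3% of all genes tested. They lay below both in MAD1L1 and ZW10, against 34.0% of all genes tested, and the genotypes overlapped in CENPE and NSL1. With 2 libraries against 2, an exact permutation test of a single gene cannot go below a two-sided p of 0.333, so the calls depend on the spread that limma shares across genes. When any 1 library was left out, no member passed the adjusted threshold, although 28 to 33 members were under an unadjusted p of 0.05. Centring each library on its median moved the median of all genes from -0.02 to 0.18 and the share of calls that were higher from 44.0% to 69.1%. Under centring 33 members were called higher and 1 lower, where 25.4% of all genes tested were called higher.

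**Figure D1:**
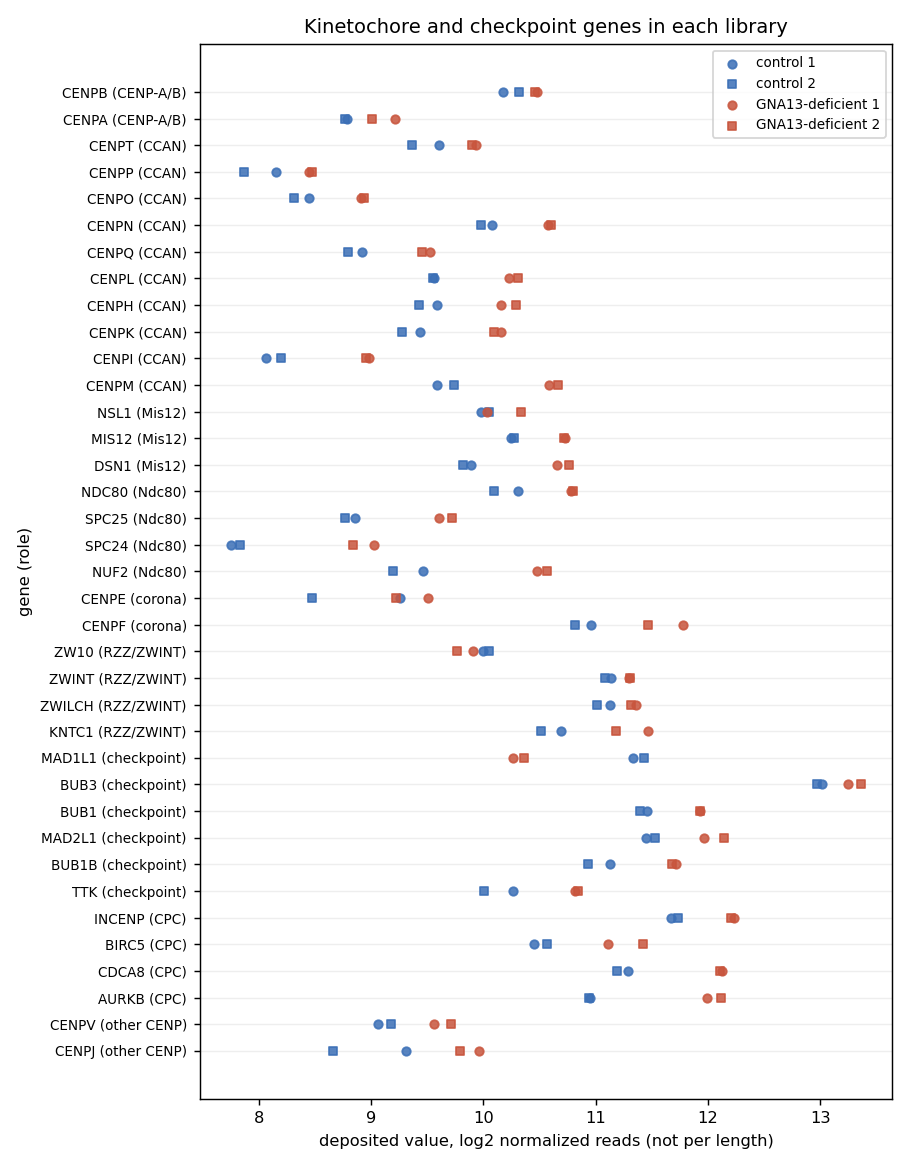
Deposited log2 normalized reads of the 37 members in each of the 4 libraries (x axis, not adjusted for gene length), with the genes on the y axis grouped by role. Blue points are control libraries and red points are GNA13-deficient libraries, and the red points lie to the right of both blue points in 33 genes and to the left in MAD1L1 and ZW10.

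Promoter windows from RefSeq on GRCh38.p14, from 250 bases before the start site to 50 bases after it, were found for 30 of the 37 members. They were searched on both strands for TTTGAA, known as the cell cycle genes homology region (CHR), for CCAAT, the letters bound by NF-Y, and for the E2F letters TTCCCGC or TTCGCGC or TTGCCGC or TTGGCGC. A gene counted as holding a motif if any of its windows held it. CHR letters were in 13 members (43.3%), against 14.6% of the 11680 tested genes with a window and 18.2% of all 27305 genes in the table. CCAAT was in 17 members (56.7%), against 42.8% and 39.7%, and the E2F letters were in 10 members (33.3%), against 23.5% and 15.3%. CHR letters and CCAAT stood together in 9 members (30.0%), against 7.7% of tested genes and 8.4% of all genes. The median log2 difference was 0.56 in members with CHR letters and 0.50 in those without, 0.56 and 0.55 for CCAAT, and 0.51 and 0.57 for the E2F letters. These shares and medians are descriptions, and a match of letters is not a bound site. BIRC5, BUB3, CENPH, CENPL, CENPM, KNTC1 and TTK had no entry.

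The windows of 5 members are printed 5′ to 3′ on the strand of the gene, with the letters of the 3 motifs in capitals as they read on that strand, so that CCAAT on the opposite strand appears as ATTGG. NUF2 (chr1:163321704-163322003, plus strand) is shown as a member with a large rise, CDCA8 (chr1:37692266-37692565, plus strand) and SPC25 (chr2:168890381-168890680, minus strand) because they hold CHR letters and CCAAT together, AURKB (chr17:8210176-8210475, minus strand, the first of its windows) as a large rise without CHR letters, and MAD1L1 (chr7:2232896-2233195, minus strand) as the member that fell.
NUF2: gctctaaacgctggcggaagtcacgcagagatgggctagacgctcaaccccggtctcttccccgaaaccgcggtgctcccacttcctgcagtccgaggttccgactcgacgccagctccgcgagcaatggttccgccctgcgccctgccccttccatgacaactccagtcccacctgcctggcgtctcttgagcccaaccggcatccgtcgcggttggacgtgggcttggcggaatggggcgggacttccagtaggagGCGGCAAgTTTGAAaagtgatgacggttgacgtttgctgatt
CDCA8: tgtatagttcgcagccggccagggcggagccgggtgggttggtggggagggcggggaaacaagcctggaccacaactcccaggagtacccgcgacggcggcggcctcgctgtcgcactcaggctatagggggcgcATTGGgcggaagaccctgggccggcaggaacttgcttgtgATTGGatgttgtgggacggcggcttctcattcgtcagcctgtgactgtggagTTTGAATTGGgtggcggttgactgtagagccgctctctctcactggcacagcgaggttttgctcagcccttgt
SPC25: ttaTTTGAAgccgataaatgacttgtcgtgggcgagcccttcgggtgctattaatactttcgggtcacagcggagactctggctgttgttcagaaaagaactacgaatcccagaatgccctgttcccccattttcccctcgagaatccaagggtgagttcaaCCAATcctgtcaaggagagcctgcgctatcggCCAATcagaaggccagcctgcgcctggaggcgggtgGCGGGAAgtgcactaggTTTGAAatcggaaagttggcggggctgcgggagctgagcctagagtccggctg
AURKB: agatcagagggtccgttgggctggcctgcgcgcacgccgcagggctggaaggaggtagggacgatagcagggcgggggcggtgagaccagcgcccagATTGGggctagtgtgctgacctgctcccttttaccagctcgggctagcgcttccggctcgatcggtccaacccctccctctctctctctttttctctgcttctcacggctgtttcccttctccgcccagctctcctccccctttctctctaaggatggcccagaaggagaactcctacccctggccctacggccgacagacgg
MAD1L1: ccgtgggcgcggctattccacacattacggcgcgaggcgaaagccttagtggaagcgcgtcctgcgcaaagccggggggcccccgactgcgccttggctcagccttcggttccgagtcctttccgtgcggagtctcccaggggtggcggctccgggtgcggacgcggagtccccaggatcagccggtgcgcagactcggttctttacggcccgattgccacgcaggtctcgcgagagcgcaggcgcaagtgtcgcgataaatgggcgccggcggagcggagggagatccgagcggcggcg
The NUF2 window held CHR letters and E2F letters downstream of the start site and no CCAAT. In CDCA8 the CHR letters shared a base with one of the CCAAT matches. SPC25 held all 3 motifs, AURKB held CCAAT only, and the MAD1L1 window held none of the letters searched.

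Neither centromeric chromatin gene passed the test. CENPA, the histone H3 variant that marks the centromere, had log2 values of 8.78 and 8.77 in the control libraries and 9.21 and 9.01 in the GNA13-deficient libraries. The difference was 0.33 (SE 0.10, 95% confidence interval 0.08 to 0.59, limma adjusted p = 0.0633). CENPA exons overlap those of SLC35F6 on the same strand, so reads shared with that gene cannot be told apart. CENPB, which binds a short motif in alpha satellite DNA, had values of 10.17 and 10.32 against 10.48 and 10.46, a difference of 0.23 (95% confidence interval 0.04 to 0.41, adjusted p = 0.0742). In both genes the GNA13-deficient libraries were above the control libraries, as in 31.3% of all genes tested. The adjusted p values of both missed the threshold. Both genes passed it when genes under the median mean level were left out (adjusted p = 0.0255 and 0.0457), with centring (0.0127 and 0.0166) and with a replicate block (0.0355 and 0.0430), and CENPA also passed with quantile normalization (0.0223) and voom (0.0437).

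The constitutive centromere-associated network is the inner layer that joins centromeric chromatin to the outer kinetochore. Its 10 genes that the rule reached had positive differences throughout. Network genes under older symbols, among them CENPC with a difference of -0.10, are given further below. Of the 10 members, 9 rose, where 13.1% of all genes tested were called higher. The log2 differences ran from 0.43 to 0.96 with a median of 0.68. CENPM, a member of the CENP-H/I/K group of subunits, had values of 9.58 and 9.74 in the control libraries and 10.58 and 10.67 in the GNA13-deficient libraries. It rose 1.95-fold (log2 difference 0.96, SE 0.08, limma adjusted p = 0.00233), and its partners CENPI, CENPK and CENPH rose by 0.83, 0.77 and 0.72 on the log2 scale. CENPT, which binds the Ndc80 complex directly, had 9.60 and 9.36 against 9.93 and 9.90. This was the smallest difference of the 10 members (0.43, SE 0.10, limma adjusted p = 0.0313). The CENPT call was lost when values were scaled by total mapped reads (adjusted p = 0.0725), without a filter and without the variance trend. CENPL, CENPQ, CENPN and CENPO rose by 0.71, 0.64, 0.56 and 0.55. CENPP had 8.15 and 7.87 against 8.45 and 8.48, a difference of 0.45 that missed the threshold (95% confidence interval 0.12 to 0.79, adjusted p = 0.0580) and passed it under 6 alternatives, with adjusted p values from 0.0137 to 0.0440. In all 10 genes both GNA13-deficient libraries were above both control libraries, against 31.3% of all genes tested.

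The Mis12 complex, which links the inner layer to the microtubule-binding layer, was uneven. DSN1 had 9.89 and 9.82 in the control libraries and 10.66 and 10.77 in the GNA13-deficient libraries, a rise of 0.86 (SE 0.07, limma adjusted p = 0.00222). MIS12 itself had 10.25 and 10.28 against 10.73 and 10.72, a rise of 0.46 with gaps between libraries of the same genotype under 0.03. NSL1 had 9.98 and 10.05 against 10.03 and 10.34, a difference of 0.17 (95% confidence interval -0.13 to 0.47, adjusted p = 0.335). Its first GNA13-deficient library lay between the control libraries. NSL1 also had the longest annotated transcript of the members, 13115 bases.

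The Ndc80 complex, the rod that grips the microtubule, had the highest median of the roles, 0.99. All 4 of its genes rose, where 13.1% of all genes tested were called higher. NUF2, which forms the microtubule-binding end together with NDC80, had 9.46 and 9.20 in the control libraries and 10.48 and 10.56 in the GNA13-deficient libraries. This was a 2.28-fold rise (log2 difference 1.19, SE 0.11, limma adjusted p = 0.00276). NDC80 had 10.31 and 10.09 against 10.78 and 10.80, a smaller rise of 0.59 (SE 0.09, adjusted p = 0.00951). The calls of NUF2 and NDC80 were lost without a filter (limma adjusted p = 0.0506 and 0.0895). That of NDC80 was also lost without the variance trend (0.059). At the centromere-facing end of the rod, SPC24 had 7.75 and 7.84 against 9.02 and 8.84, a rise of 1.14 (SE 0.11, adjusted p = 0.00331), and SPC25 rose by 0.85. In all 4 genes both GNA13-deficient libraries were above both control libraries, against 31.3% of all genes tested. SPC24 rested on the fewest reads of any member, 212 and 232 in the control libraries and 507 and 426 in the GNA13-deficient libraries. Per kb of the longest coding transcript, SPC24 was at 94.2 and 99.7 normalized reads in the control libraries and NDC80 was at 596.7 and 513.7, so the subunits of the rod differed in level as well as in change.

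The 2 members of the outer corona varied between libraries of the same genotype. CENPF, a large protein of the outer kinetochore and the nuclear matrix, had 10.96 and 10.81 in the control libraries and 11.78 and 11.47 in the GNA13-deficient libraries, a rise of 0.73 (SE 0.12, limma adjusted p = 0.0129). CENPE, a kinesin that carries chromosomes toward the spindle equator, had 9.26 and 8.48 against 9.51 and 9.22, a difference of 0.50 (SE 0.27, 95% confidence interval -0.21 to 1.21, adjusted p = 0.244). Its first control library was above its second GNA13-deficient library. Without the second control library the CENPE difference was 0.11, and without the first it was 0.89.

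The genes of the RZZ complex, which brings dynein and the MAD1-MAD2 pair to unattached kinetochores, gave unequal differences. KNTC1, its large scaffold subunit, had 10.69 and 10.52 in the control libraries and 11.46 and 11.19 in the GNA13-deficient libraries, a rise of 0.72 (SE 0.12, limma adjusted p = 0.0119). ZWILCH rose by 0.26, from 11.13 and 11.02 to 11.36 and 11.32 (adjusted p = 0.0349). ZW10 had 10.00 and 10.05 against 9.91 and 9.77, a difference of -0.19 (95% confidence interval -0.39 to 0.01, adjusted p = 0.134) that turned to 0.02 when libraries were centred on their medians. ZWINT, which holds the complex to the outer kinetochore, had 11.13 and 11.08 against 11.30 and 11.30, a rise of 0.19 (SE 0.05, adjusted p = 0.0492) that only just passed. The calls of ZWINT and ZWILCH were lost when the values were scaled by total mapped reads (adjusted p = 0.167 and 0.114), without a filter and without the variance trend. That of ZWINT was also lost with quantile normalization, a robust prior and voom. The KNTC1 call was lost without a filter (limma adjusted p = 0.117) and without the variance trend (0.0658).

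Among the 6 spindle checkpoint genes, 5 rose and MAD1L1 fell, where 13.1% of all genes tested were called higher and 16.6% lower. MAD1L1, the platform that converts MAD2L1 to its inhibitory form at unattached kinetochores, had log2 values of 11.33 and 11.43 in the control libraries and 10.26 and 10.37 in the GNA13-deficient libraries. These correspond to 2532 and 2812 reads against 1198 and 1226 reads. Its mRNA fell to 47.7% of the control level (log2 difference -1.07, SE 0.07, 95% confidence interval -1.25 to -0.89, limma adjusted p = 0.00157). The gaps within a genotype were about 0.10, and the difference was between -1.12 and -1.02 with any 1 library left out and between -1.12 and -0.86 under the other alternatives. MAD1L1 (Entrez 8379) lies on the minus strand at chr7:1855429-2272878 of hg19, and its exons overlap those of a second annotated gene on the same strand, ENSG00000286192, so reads shared with that gene cannot be told apart.

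The other checkpoint genes moved upward with different sizes. TTK, the MPS1 kinase that starts the signal, had 10.26 and 10.00 in the control libraries and 10.81 and 10.85 in the GNA13-deficient libraries, a rise of 0.70 (SE 0.10, limma adjusted p = 0.00859). MAD2L1, the partner of MAD1L1, had 11.45 and 11.53 against 11.97 and 12.14, a rise of 0.56 (SE 0.08, adjusted p = 0.00770). BUB1B, the BUBR1 component of the inhibitory complex, and the kinase BUB1 rose by 0.67 and 0.50. BUB3, the WD40 protein that anchors both of them, had 13.01 and 12.97 against 13.25 and 13.36, the smallest rise of the role (0.32, SE 0.07, adjusted p = 0.0245) at the highest read number of any member. With quantile normalization the BUB3 difference was 0.17 and the call was lost (adjusted p = 0.0940), as it was without a filter (0.105) and without the variance trend (0.107). The calls of TTK and MAD2L1 were also lost under the latter settings, and that of BUB1B was lost without a filter. BUB1B exons overlap those of PAK6 on the same strand, which limits its value in the same way as that of MAD1L1.

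All 4 genes of the chromosomal passenger complex, which corrects faulty attachments at the inner centromere, rose with a median of 0.81. Of all genes tested, 13.1% were called higher. AURKB, its kinase, had 10.95 and 10.94 in the control libraries and 11.99 and 12.11 in the GNA13-deficient libraries, a 2.16-fold rise (log2 difference 1.11, SE 0.06, limma adjusted p = 0.00128). CDCA8, the borealin subunit, had 11.28 and 11.19 against 12.12 and 12.11, a rise of 0.88 (SE 0.06, adjusted p = 0.00159). BIRC5, or survivin, rose by 0.75, with a gap of 0.31 between the GNA13-deficient libraries. INCENP, the scaffold of the complex, had 11.67 and 11.74 against 12.23 and 12.21, a rise of 0.52 (SE 0.05, adjusted p = 0.00390). In each of the 4 both GNA13-deficient libraries were above both control libraries, against 31.3% of all genes tested. Per kb of the longest coding transcript, AURKB was the most abundant member, with 1575.4 and 1565.6 normalized reads in the control libraries and 3246.0 and 3534.9 in the GNA13-deficient libraries. CENPP was the least abundant on this measure, with 34.2 and 28.2 against 42.1 and 42.9. Its rank depends on the transcript length taken, 8293 bases, and by reads it was not the lowest member.

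The CENP symbol also took in 2 genes outside the kinetochore core. CENPJ, a centriole assembly protein, had 9.31 and 8.66 in the control libraries and 9.96 and 9.79 in the GNA13-deficient libraries, a rise of 0.89 (SE 0.22, limma adjusted p = 0.0404). The gap between its control libraries was 0.65, and the difference was 0.57 without the second control library and 1.22 without the first. The call was lost with a pseudocount of 10 (adjusted p = 0.0581), when values were scaled by total mapped reads (0.0617), without a filter (0.242) and without the variance trend (0.128). CENPV had 9.06 and 9.18 against 9.56 and 9.72, a rise of 0.52 (SE 0.09, adjusted p = 0.0154).

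**Figure D2:**
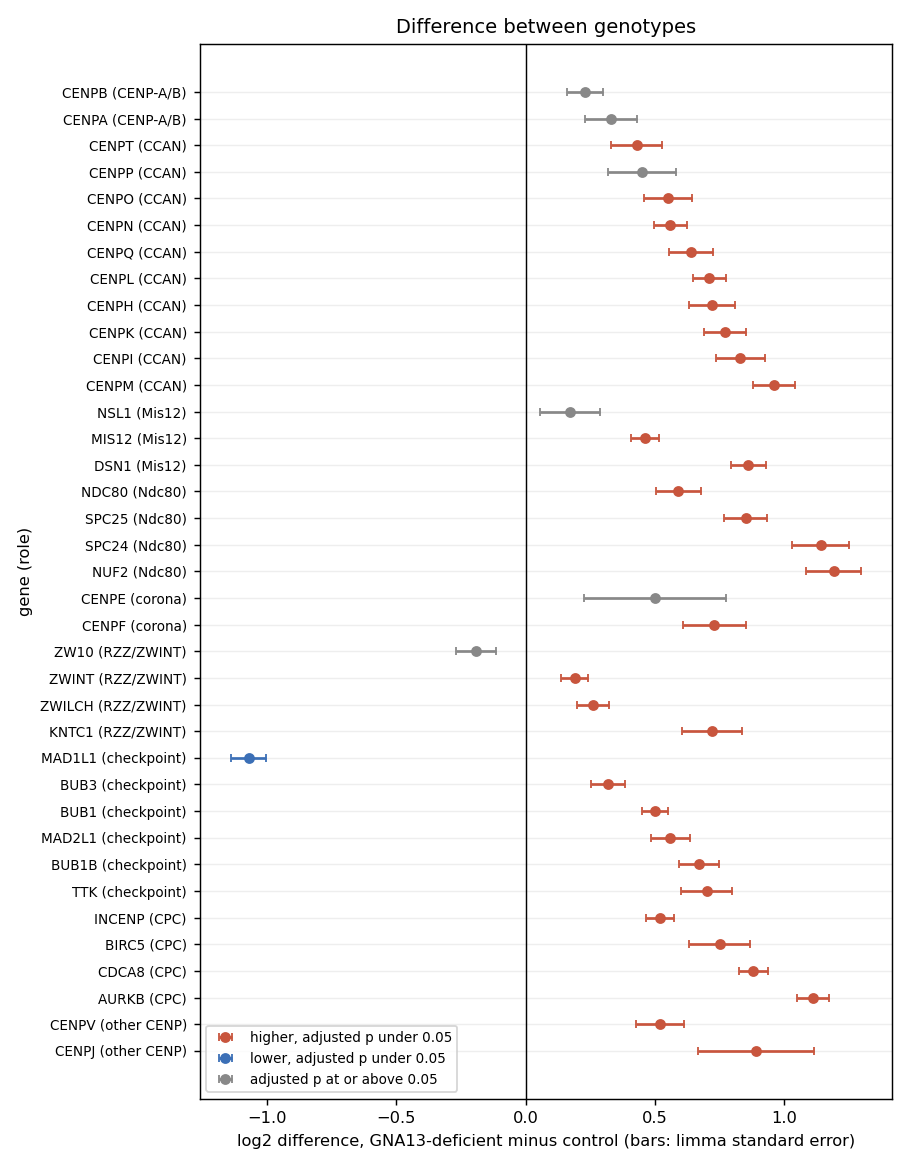
Log2 difference of each member, GNA13-deficient minus control (x axis), with genes on the y axis grouped by role and bars showing the limma standard error from 2 libraries per genotype. Red points mark the 30 members called higher, the blue point marks MAD1L1 and grey points mark the 6 members that missed the adjusted threshold of 0.05.

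The differences were set against the gaps between libraries of the same genotype. In 35 of the 37 members the difference between genotypes was larger than the larger of the gene's gaps within a genotype, and the exceptions were CENPE and NSL1. The share of all genes tested that met this was not computed. A gene that meets it cannot overlap between genotypes, so this count largely repeats that of genes without overlap. Of all genes tested, 31.3% lay higher and 34.0% lower without overlap. The median of the larger gap within a genotype was 0.16. It passed 0.3 in BIRC5, CENPE, CENPF, CENPJ and NSL1, and CENPE and CENPJ stood farthest out. In 25 of the 37 members the second control library was below the first, by a median of 0.07 over all members, while the median gap of the GNA13-deficient libraries was 0.01. Over all genes tested, the median gap between the control libraries was -0.02.

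**Figure D3:**
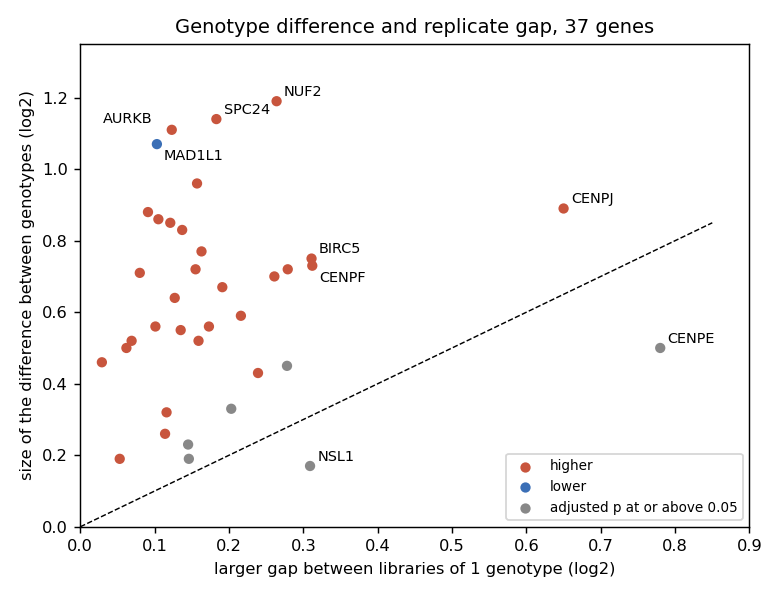
Size of the log2 difference between genotypes (y axis) against the larger of the gaps between libraries of 1 genotype (x axis), 1 point per member, with a dashed line where they are equal. Only CENPE and NSL1 lie below the line, and NUF2, SPC24, AURKB and MAD1L1 lie highest.

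Because scaling of a library cancels in a ratio of genes, partners were also compared within each library. These 7 pairs were chosen after the values had been seen and the ratios are descriptions. The log2 ratio of MAD1L1 to MAD2L1 was -0.12 and -0.09 in the control libraries and -1.70 and -1.78 in the GNA13-deficient libraries. Near equality in reads, not adjusted for length, thus gave way to a deficit of MAD1L1. Per kb of the longest coding transcript, the mean of MAD1L1 was 893.2 in the control libraries, above 550.1 for MAD2L1. In the GNA13-deficient libraries it was 426.0, below 814.7 for MAD2L1. The ratio of ZW10 to KNTC1 went from -0.69 and -0.46 to -1.55 and -1.42, and that of NSL1 to DSN1 from 0.09 and 0.23 to -0.63 and -0.43. KNTC1 and DSN1 rose, whereas ZW10 and NSL1 did not pass the test. The ratio of NUF2 to NDC80 went from -0.85 and -0.90 to -0.30 and -0.23, and the ratio of AURKB to INCENP from -0.72 and -0.80 to -0.24 and -0.09. In these pairs both partners rose by unequal amounts. SPC24 relative to SPC25 changed least, by 0.29, with -0.94 in the second control library close to -0.88 in the second GNA13-deficient library. BUB1B relative to BUB3 changed by 0.35. No pair overlapped between genotypes, and how often other pairs of genes overlap was not computed.

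**Figure D4:**
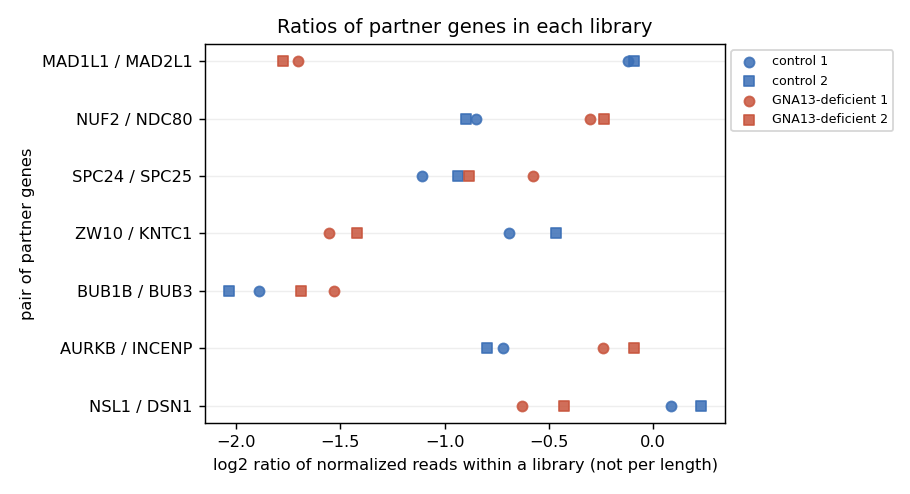
Log2 ratio of normalized reads between partner genes within each library (x axis, not adjusted for gene length) for 7 pairs (y axis), with control libraries in blue and GNA13-deficient libraries in red. MAD1L1 over MAD2L1 shows the widest separation, from about -0.1 to about -1.7, and SPC24 over SPC25 the narrowest.

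Several genes of the same complexes were listed under older symbols, which the rule did not reach. There were 8 of these, matched by Entrez identifier, and 6 of them rose with a median over all 8 of 0.67. Of all genes tested, 13.1% were called higher and 16.6% lower. All 3 genes of the Ska complex, which strengthens the hold of the Ndc80 rod on microtubules, rose, with SKA1 (listed as C18orf24) up by 0.95, SKA2 (FAM33A) by 0.73 and SKA3 (C13orf3) by 0.60. SKA1 had 9.44 and 9.51 in the control libraries and 10.42 and 10.44 in the GNA13-deficient libraries. In the inner network, CENPU (MLF1IP), CENPX (STRA13) and CENPS (APITD1) rose by 0.98, 0.84 and 0.45. CENPW (C6orf173) had a difference of 0.42 (limma adjusted p = 0.0512). CENPC (CENPC1), the backbone that binds the CENPA nucleosome, had 9.76 and 9.55 against 9.61 and 9.50, a difference of -0.10 (95% confidence interval -0.36 to 0.16, adjusted p = 0.494) that turned positive with centring and without the first control library. With these genes added, 36 of 45 rose and 1 fell.

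Related genes outside the rule were counted in 5 lists, by the same limma calls. These called 13.1% of all genes tested higher and 16.6% lower. Of 17 other kinetochore and centromere genes, which include 4 of the genes under older symbols, 13 rose and none fell, with a median of 0.48. The microtubule depolymerase KIF2C rose by 0.93 and CENPU by 0.98. Of 21 genes of the anaphase-promoting complex, its activators and its targets, 11 rose and 1 fell, with a median of 0.28. Separase, ESPL1, which cleaves cohesin at anaphase, rose by 1.06, and the activator CDC20, which the checkpoint inhibits, rose by 0.84. The gene that fell was the scaffold subunit ANAPC1 (-0.49), named after its value was seen. Of 13 cohesin genes and regulators, 8 rose and none fell, with a median of 0.30, led by the acetyltransferase ESCO2 (0.90) and by sororin, CDCA5 (0.62).

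Most genes of the wider cell cycle lists also rose, where 13.1% of all genes tested were called higher and 16.6% lower. Of 21 other G2/M genes, 18 rose and 1 fell, with a median of 0.70, and topoisomerase TOP2A and the transcription factor MYBL2 rose by 1.27 and 1.14. The gene that fell was cyclin B2, CCNB2, named after its value was seen, with 10.53 and 10.44 in the control libraries and 9.97 and 10.11 in the GNA13-deficient libraries (-0.44, SE 0.08, limma adjusted p = 0.0145). All 18 genes of the G1/S and S phase list had positive differences and 16 of them rose, with a median of 0.68, among them the nucleotide synthesis genes RRM2 (1.09) and TYMS (1.00). The members' median of 0.59 thus lay between those of the cohesin and anaphase lists on one side and those of the G2/M and S phase lists on the other, and the differences between lists were not tested. The lists held 3 further genes not analysed here and 1 that was below the filter.

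**Figure D5:**
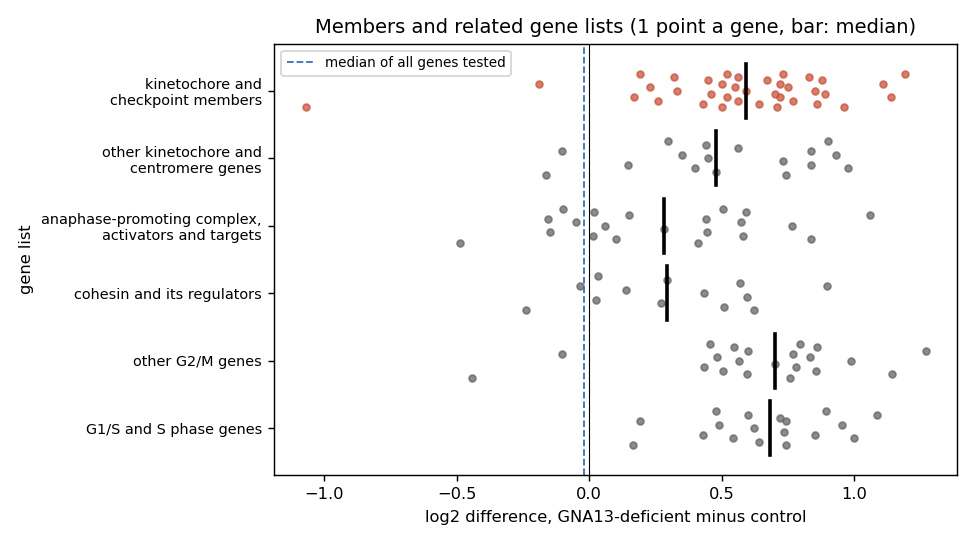
Log2 difference, GNA13-deficient minus control (x axis), of each gene in the member list and in 5 related lists (y axis), with a black bar at each list's median and a dashed line at the median of all genes tested. The member median of 0.59 lies below those of other G2/M genes (0.70) and G1/S and S phase genes (0.68) and above the rest, with MAD1L1 alone at the far left.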

How the data were processed

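RNA sequencing of 4 NUDUL1 libraries was used, 2 per genotype, grouped by their titles. The authors' reads were mapped to hg19 by STAR, and the submitters' processing notes name HTSeq. The deposited values are log2 normalized reads per gene, and a row of total mapped reads on a linear scale gave the depth. The method of normalization and the annotation used for counting are not given in the sources used here. The library kit was stranded, but whether counting used strand is likewise not given, and exons of 9 members overlap a gene on the opposite strand. Exons of 3 members, CENPA, BUB1B and MAD1L1, overlap a gene on the same strand. Pseudogenes are annotated for 8 members.

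The deposited log2 values were used without a pseudocount. Low values fall on steps of 1 read, from which read numbers were recovered. In the second control library 1 read would lie at log2 -0.023, no gene stood at 1 read and 9309 genes were listed at 0. Genes with 1 read there cannot be told apart from genes at 0, which touches the filter, voom and the shares over all genes. The members, with at least 212 reads, were above this level. Genes above 0 in at least 2 libraries entered a linear model of genotype alone in limma 3.58.1 (R 4.3.3), moderated by eBayes with trend. P values were adjusted by Benjamini-Hochberg across all genes tested, and genes with an adjusted p under 0.05 are called. Positions are from GENCODE on hg19, and levels per kb use the longest coding transcript. Tables were handled with pandas 2.3.3 and numpy 2.4.6 in Python 3.11, and the fit was tested on simulated data. The simulated libraries were drawn independently, so that test does not cover deviations shared by libraries with the same replicate number.

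The members, the related lists and the tests were chosen with earlier results of these data known. Members with the largest and smallest absolute difference in each role, those called lower, and the 2 largest called differences of each related list were named by rule, and any other gene was chosen after its values were seen. Alternatives were other filters, pseudocounts of 1 and 10, quantile normalization, centring, a replicate block, no variance trend, a robust prior, voom on the recovered reads and leaving out each library. Scaling by total mapped reads and adding the genes under older symbols were chosen after seeing the data.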

Additional observations from a re-analysis of the deposited data

How the results depend on the processing

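Of the 30 members called higher, 14 were called without a filter on low values, where 3.3% of all genes were called higher. Without the variance trend 18 were called, where 5.8% of all genes were called higher. The calls over all genes in both directions went from 5037 to 1999 and 2718, and the cause was not tested. Both settings lost BIRC5, BUB3, CENPF, CENPJ, CENPT, CENPV, KNTC1, MAD2L1, NDC80, TTK, ZWILCH and ZWINT. Without a filter BUB1B, CENPH, CENPO and NUF2 were lost as well. Under the other alternatives 26 (scaled by total mapped reads) to 36 (genes under older symbols added) were called higher. MAD1L1 was called lower under every alternative except leaving out a library. The median difference of 0.59 became 0.64 with quantile normalization, 0.80 with centring and 0.54 scaled by total mapped reads. With the replicate number as a block, 6616 genes were called over all in either direction, and 18.0% of all genes tested were called higher. Under it 34 members were called higher, with CENPA, CENPB, CENPE and CENPP gained. Of these, CENPA, CENPB and CENPP also passed with the median filter and with centring. Same-numbered libraries deviated together (correlation 0.45 over 8473 genes), but no source says that the numbers mark a shared batch. With any 1 library left out, limma had 1 residual degree of freedom and the lone library was assumed to vary like the other genotype. The members called higher then numbered 0 to 0, those called lower 0 to 0 and all genes called 0 to 0, while 5257 to 5600 genes were under an unadjusted p of 0.05, and the median ran from 0.57 to 0.70. Only 2 genes changed sign, neither of them called. These were ZW10, at 0.02 with centring, and CENPC1, at 0.11 with centring and from -0.21 to 0.004 with 1 library left out, the latter without control replicate 1.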

Other observations

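Across the 37 members, the Spearman correlation of transcript length with the log2 difference was -0.32, and with the gap between the control libraries and between the GNA13-deficient libraries it was -0.19 and -0.20. The gaps of the genotypes correlated with each other at 0.34. Members share libraries and are not independent replicates, so these are descriptions.

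CHR letters were in 11 of the 23 members called higher that had a promoter window (47.8%) and in 2 of the 7 others (28.6%), ZW10 and CENPA. E2F letters were in 7 of the 23 (30.4%) and in 3 of the 7 (42.9%).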
